A study of Capra hircus with 3 samples.

Results

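The keratins that build the hair shaft and the inner root sheath of the follicle were followed in the skin of Arbas Cashmere goats kept under a short or a natural photoperiod. The members were the 8 keratin genes of this kind that had been singled out on their ratio between the photoperiods in these same arrays, so that ratio is given here as a description and without a test, and everything computed from it is description too. Every non-control probe carrying 1 of the 8 gene names was taken, which gave 11 probes for 8 of the 14314 gene names on the array. Keratin-associated proteins were left out, and 9 further keratin genes on the array served for comparison.

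Side skin was sampled in July from 6 female goats aged 2 years. The 3 goats of the short photoperiod group grazed in daytime and otherwise stood in a dark shed of about 0.1 lux that was 1 °C cooler than outside, and the 3 goats of the natural photoperiod group grazed in natural light. Each of 3 arrays, called replicates 1 to 3, compared 1 goat of each group. Allocation to the groups was random by the methods, and the study elsewhere describes the goats set against each other as having a parent in common. RNA of the short photoperiod goat carried Cy5 and that of the natural photoperiod goat Cy3 on every array. With 0 dye-swapped arrays, a dye effect and an effect of the photoperiod cannot be told apart, and the shed's temperature differed together with its light. The arrays were designed for sheep and were hybridised with goat RNA, so the gene names are those of sheep.

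Keratins of type I pair with keratins of type II to form the intermediate filaments of epithelial cells. Hair keratins, which are rich in cysteine, fill the cells of the hair cortex and cuticle as these harden into the shaft in the growing (anagen) follicle. A separate set of keratins is made in the inner root sheath, the sleeve of cells that moulds the shaft and is lost before the shaft leaves the skin. Among the members, V15 (wool keratin 8c1), K33, LOC100526782 (K33B) and LOC100526781 (K34) are type I keratins of the shaft. KRT2.11 and K2.12 (K85) are type II keratins of the shaft, and K85 is known from the hair matrix and early cortex. K27 and LOC443079 (IRSa1) are type I keratins of the inner root sheath. No type II keratin of the inner root sheath was among the members.

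Hair keratins of type I are close relatives, and the array's annotation showed that some of the probes do not separate them. The 60-base probe of V15 (A_70_P030296) also listed the K33 transcript as a target, that of K33 (A_70_P012856) also listed K33B, and that of K33B (A_70_P001727) also listed both V15 and K33. These 3 probes are printed because their values may be shared between the transcripts, together with the KRT2.11 probe that starts nearest the 5′ end of its record (A_70_P001746), which listed no other member. They are given 5′ to 3′ in the strand of the array's sequence column, in lower case throughout since no stretch is singled out.
V15: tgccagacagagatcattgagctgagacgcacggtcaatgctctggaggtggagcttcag
K33: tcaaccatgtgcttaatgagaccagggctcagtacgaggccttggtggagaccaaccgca
LOC100526782: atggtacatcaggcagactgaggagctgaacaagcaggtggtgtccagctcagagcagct
KRT2.11: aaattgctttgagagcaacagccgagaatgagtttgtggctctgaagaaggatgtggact
The probes of K34, K85, K27 and IRSa1 and the other 2 of KRT2.11 listed no second member. The word AATAAA, the letters of a polyadenylation signal, was found on the printed strand in 3 of the 11 member probes (1 each of KRT2.11, K2.12 and LOC443079) and in 5.63% of the 15008 probes of the array. In the goat gene table of assembly ARS1.2, 1 of the 8 member names could be matched, K27 to KRT27, which lies beside KRT26.

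Spots of the members were among the brightest of the arrays. Their mean brightness over both dyes lay between the 96.5th and the 99.99th percentile of all probes. Cy5 intensity ranged from 69780 to 326800 over a local background of 35 to 73, and Cy3 intensity from 8276 to 61850 over a background of 21 to 28. All 11 probes stood well above background in 6 of 6 channels and 0 spots were saturated. On replicate 1 the K33 spot carried an outlier flag and was left out. Across the arrays, the median Cy5 intensity was 4587, 6436 and 7120 and the median Cy3 intensity 2688, 3668 and 3911. Precision is limited throughout by there being 3 arrays.

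All 8 keratins had a higher mean level under the short photoperiod. Their ratios, on the log2 scale after loess normalization within each array, ran from 0.60 for K33B to 1.28 for V15, which is 1.51-fold to 2.42-fold. V15, K34, K27, K85 and IRSa1 reached 2-fold, IRSa1 only just, at 1.02. Counted by probe, 5 of 11 were at least 2-fold higher, against 0.427% of the 14977 probes tested, and 0 of 11 were at 0.5-fold or below, against 0.414%. Those counts follow from the way the genes were chosen and nothing is read from them. Just inside the 2-fold limit stood 1 IRSa1 probe at 1.08 (A_70_P051041), and just outside stood the second IRSa1 probe at 0.96 (A_70_P051042), which were both read from the same transcript. Skin is a mixture of cells, and more follicle cells of a kind and more RNA per cell cannot be told apart in these samples.

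**Figure D1:**
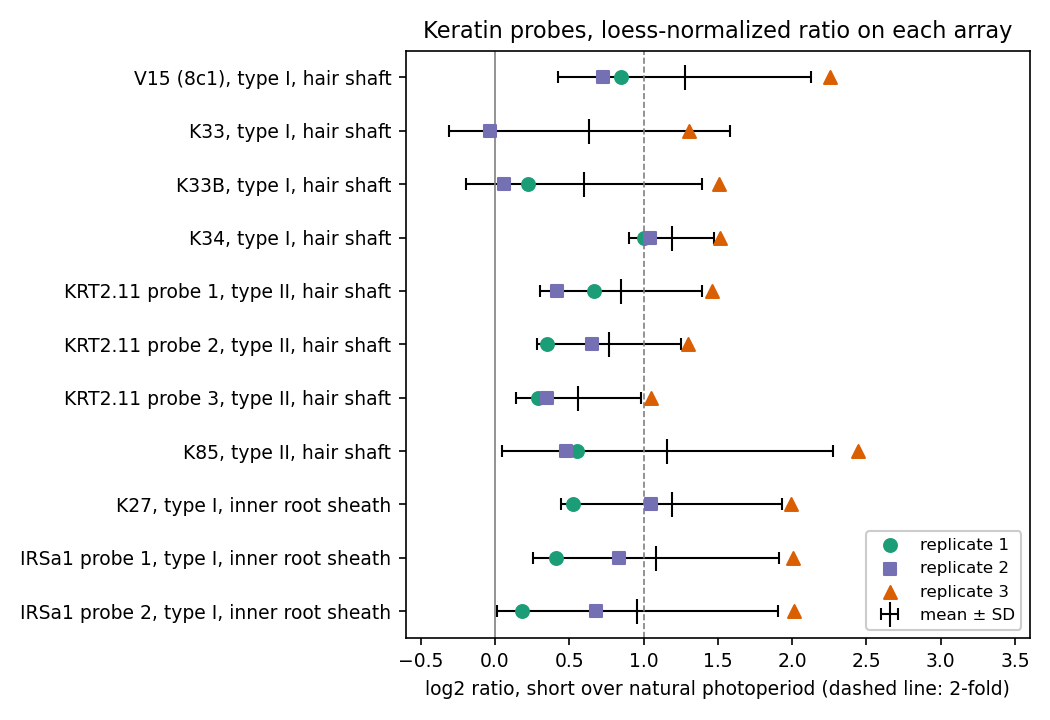
Log2 ratio of short over natural photoperiod (x axis) for each of the 11 keratin probes (y axis), with 1 marker per array and the mean ± SD over the arrays measured (3, or 2 for K33) in black. The replicate 3 marker is the rightmost for every probe, and all 11 lie beyond the dashed 2-fold line there.

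The 3 arrays were far from alike. Over the member probes the median log2 ratio was 0.47 on replicate 1, 0.65 on replicate 2 and 1.52 on replicate 3. On replicate 1 the ratios spanned 0.18 to 1.00, on replicate 2 they spanned -0.036 to 1.05, and on replicate 3 they spanned 1.05 to 2.44. Replicate 3 thus gave the highest ratio for each of the 11 probes. On that array 11 of 11 members were at least 2-fold higher, against 2% of all probes, whereas 1 of 10 reached 2-fold on replicate 1, against 1.12% of all probes, and 2 of 11 on replicate 2, against 0.89%. The direction was shared more widely than the size. Of the 11 probes, 10 were higher on every array that measured them, against 21.9% of all probes, and the exception was K33. K34 alone was at least 2-fold higher on every array, which held for 0.12% of all probes.

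Among the type I keratins of the shaft, V15 read 0.85 (replicate 1), 0.72 (replicate 2) and 2.25 (replicate 3) on the log2 scale, in that array order for all values that follow, with a mean of 1.28 ± 0.85 (SD, n = 3). K34 had ratios of 1.00, 1.04 and 1.52, with a mean of 1.19 ± 0.29 (SD, n = 3). V15 therefore owed its place as the highest mean to 1 array, while K34 had the smallest spread of any member. K33B had ratios of 0.22, 0.064 and 1.51, with a mean of 0.60 ± 0.79 (SD, n = 3). K33 had -0.036 on replicate 2 and 1.30 on replicate 3, which gave 0.63 over 2 arrays. With the flagged spot kept, K33 read 0.23, -0.064 and 1.25. Both keratins of the K33 kind were thus near equality in the 2 photoperiods on replicates 1 and 2, flagged spot included. Pixels of the K33 spots varied strongly, with a coefficient of variation of 26.1% to 34.9% in Cy3 over the 3 arrays.

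The type II keratins of the shaft gave 4 probes. All 3 probes of KRT2.11 were highest on replicate 3, and they differed in size. A_70_P001746 read 0.67, 0.42 and 1.46, A_70_P015941 read 0.35, 0.65 and 1.30, and A_70_P016006 read 0.29, 0.35 and 1.05. Averaging them on each array gave 0.72 ± 0.47 (SD, n = 3) for the gene. K85 read 0.55, 0.48 and 2.44, with a mean of 1.16 ± 1.12 (SD, n = 3). It combined the highest replicate 3 ratio of all 8 keratins with ratios below 2-fold on both other arrays.

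The inner root sheath keratins gave 3 probes. K27 read 0.52, 1.05 and 1.99, with a mean of 1.19 ± 0.75 (SD, n = 3). The 2 probes of IRSa1 read 0.41, 0.84 and 2.005 (A_70_P051041) and 0.18, 0.68 and 2.01 (A_70_P051042), and the gene's mean was 1.02 ± 0.88 (SD, n = 3). In all 3 probes replicate 2 lay between the other arrays. Of the 7 shaft probes measured on every array, replicate 2 lay between the others in 3 (K34 and the KRT2.11 probes A_70_P015941 and A_70_P016006) and was the lowest in 4 (V15, K33B, K85 and the KRT2.11 probe A_70_P001746).

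In order of their means the genes stood V15, K34, K27, K85, IRSa1, KRT2.11, K33 and K33B. Neighbours in this order differed by at most 0.30 on the log2 scale, less than the SD of that difference over the arrays, in 6 of 7 pairs. The last pair, K33 and K33B, is the exception, where on the 2 arrays that measured both the difference was -0.15 ± 0.075 (SD, n = 2), with K33 the lower one, opposite to the order of their means, which rest on different arrays. V15 took ranks 2, 4 and 2 on the 3 arrays and K85 ranks 3, 5 and 1, so the ranking by mean did not hold array by array.

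Grouped by type, the type I keratins of the shaft averaged 0.69, 0.45 and 1.65 on the 3 arrays (mean 0.93 ± 0.63, SD, n = 3) and the type II keratins 0.46, 0.47 and 1.56 (mean 0.83 ± 0.63, SD, n = 3). Type II minus type I was -0.23, 0.025 and -0.083, with a mean of -0.095 ± 0.13 (SD, n = 3), which is within the spread of the arrays. Without the K33 probe, which replicate 1 lacked, that difference was -0.23, -0.14 and -0.20, with a mean of -0.19 ± 0.046 (SD, n = 3). Which type was the higher on replicate 2 thus depended on the K33 spot. These averages count probes, and 3 of the 4 type II probes are of KRT2.11. As genes, KRT2.11 had a mean of 0.72 and K85 of 1.16, so the type II average leans on the lower gene. On replicate 3 KRT2.11 read 1.27 and K85 2.44. The difference between the types therefore also depends on this weighting.

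Grouped by compartment, again over probes, the shaft keratins averaged 0.56, 0.46 and 1.60 (mean 0.88 ± 0.63, SD, n = 3) and the inner root sheath keratins 0.37, 0.86 and 2.003 (mean 1.08 ± 0.84, SD, n = 3). Inner root sheath minus shaft was -0.19, 0.39 and 0.40, with a mean of 0.20 ± 0.34 (SD, n = 3), also within the spread of the arrays. The sign changed between replicate 1 and the others. Divided by spot brightness, the 6 brighter probes averaged 0.88 ± 0.59 (SD, n = 3) and the 5 less bright probes 0.99 ± 0.80 (SD, n = 3). That division describes spots and not transcript amounts, since brightness also depends on the probe.

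Splitting each ratio into the goats behind it placed most of the spread on the natural photoperiod side. Levels here are log2 values per dye after loess and equalisation of the arrays' overall brightness, and they are compared between goats for 1 probe at a time. V15 stood at 16.66, 16.61 and 16.55 in the short photoperiod goats of replicates 1, 2 and 3 and at 15.81, 15.89 and 14.29 in the natural photoperiod goats. The 3 short photoperiod goats were thus nearly equal, and the natural photoperiod goat of replicate 3 was the lowest of the 6. K85 stood at 15.92, 15.95 and 16.07 under the short photoperiod and at 15.37, 15.47 and 13.62 under the natural one. K27 stood at 15.92, 16.03 and 16.04 against 15.40, 14.98 and 14.05. K33B stood at 17.27, 17.09 and 17.14 against 17.05, 17.03 and 15.63. K34, by comparison, stood at 16.21, 16.35 and 16.36 against 15.21, 15.31 and 14.84, so its natural photoperiod goats differed least.

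The same goat stood out in every member. The natural photoperiod goat of replicate 3 was the lowest of its group for 11 of 11 member probes, against 39.8% of all probes measured on every array, and it was so as well when intensities were only divided by the channel's median. For each member probe measured on every array, its level was set against the mean of the other natural photoperiod goats. In the median of these probes it lay 1.16 below that mean on the log2 scale, a fold of 0.449. Over the 10 member probes measured on every array, the median SD was 0.69 among the natural photoperiod goats and 0.088 among the short photoperiod goats, whereas over all probes it was 0.25 and 0.22. The SD was larger among the natural photoperiod goats for 10 of these 10 probes, against 55.2% of all probes. Without replicate 3 the median SD was 0.073 among the natural and 0.11 among the short photoperiod goats, and the natural side was the more variable in 5 of the 10 probes. The wider spread therefore came with replicate 3, where the goat, its Cy3 labelling and its hybridisation cannot be told apart. The natural photoperiod side was also the Cy3 side on every array. Levels of the groups did not overlap for 10 of the 11 member probes, the exception again being K33, against 6.86% of all probes. Because the groups differ by the ratio that chose the genes, that count is a description.

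**Figure D2:**
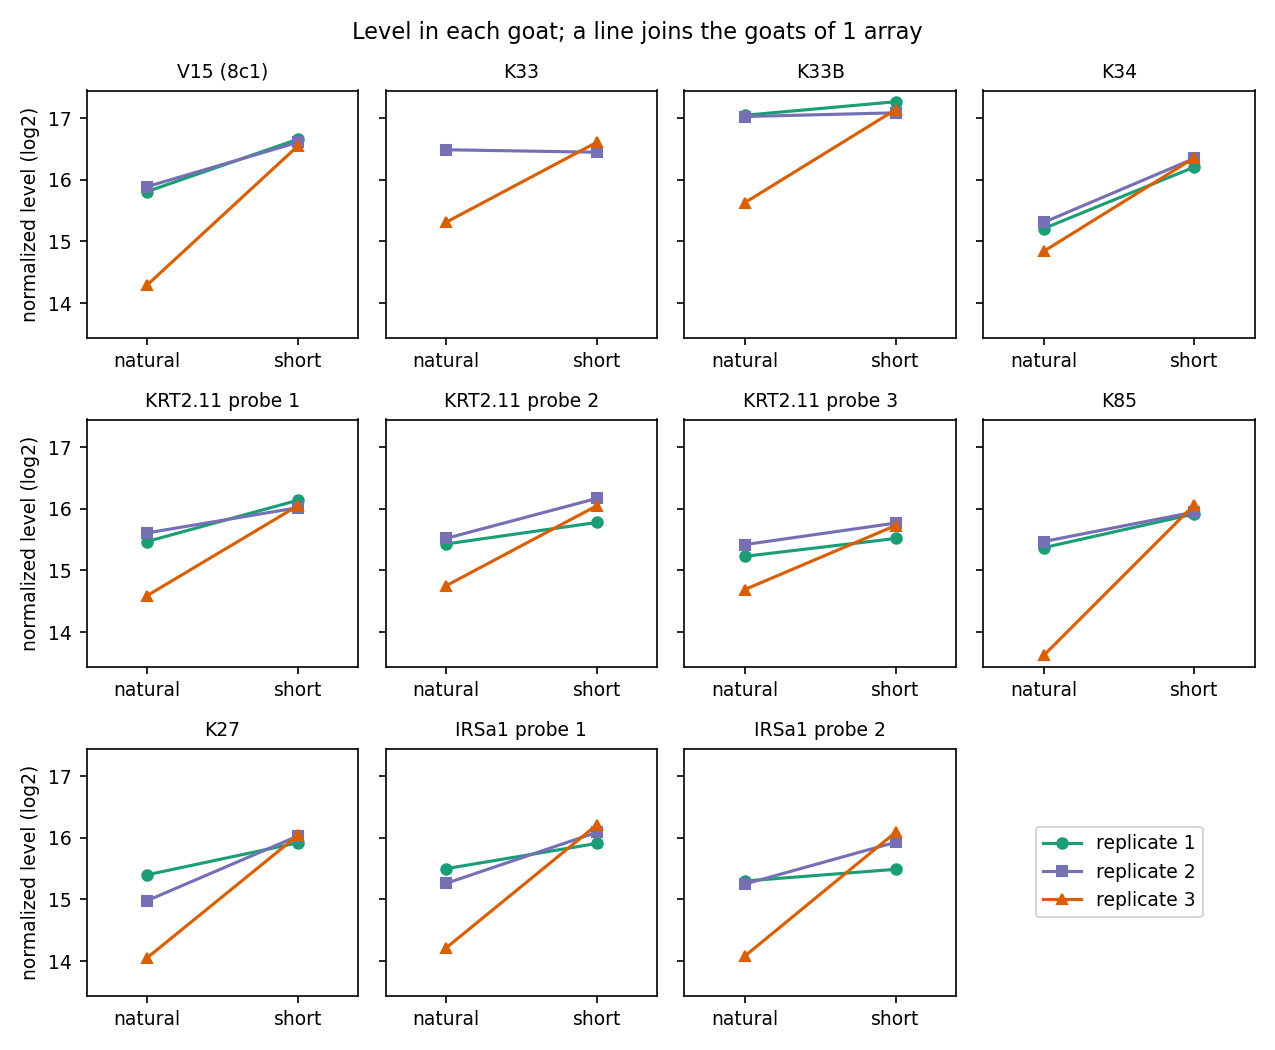
Normalized log2 level (y axis) of each of the 11 keratin probes in the natural and the short photoperiod goat of each array, with 1 colour and marker per array and a line joining the goats hybridised together. The markers lie closer together on the short than on the natural side in the 10 panels with 3 arrays, and the natural triangle of replicate 3 is the lowest in all 11 panels.

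The same goat was low in the scanned intensities, before any normalization. The V15 spot gave Cy5 intensities of 171000, 182400 and 174300 on replicates 1, 2 and 3, and Cy3 intensities of 30340, 31650 and 11880. The K85 spot gave Cy5 intensities of 98000, 112000 and 120100 and Cy3 intensities of 24400, 26320 and 8276. In both, Cy5 was much alike on the 3 arrays while Cy3 was far lower on replicate 3 than on the others. Yet the median intensities of Cy3 and of Cy5 over all probes were both highest on that array. Other member spots showed this less clearly. The IRSa1 spot A_70_P051042 gave Cy5 intensities of 69780, 109800 and 125100, and the K34 spot gave Cy3 intensities of 21820, 23200 and 16870.

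How much higher the keratins were depended on how the brightness trend of the dyes was removed. Before normalization the members' log2 Cy5 over Cy3 ratios lay between 1.55 and 3.87, and the medians of all probes were 0.80, 0.83 and 0.89 on the 3 arrays. Loess, which subtracts the trend at each spot's own brightness, took off more than the median of all probes from each member. The brightest probe, that of K33B, lost the most, with a mean over the arrays of 2.03, and the probe A_70_P051042 of IRSa1 the least, with a mean of 1.48. With only the median of each array subtracted, the mean of the members was 1.71 in place of 0.93 ± 0.68 (SD, n = 3) and 11 of 11 probes reached 2-fold in place of 5. All 8 genes were higher on the mean of the arrays under each scaling tried. Few probes are as bright as these, and what part of the removed trend was dye and what part photoperiod cannot be told apart.

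**Figure D3:**
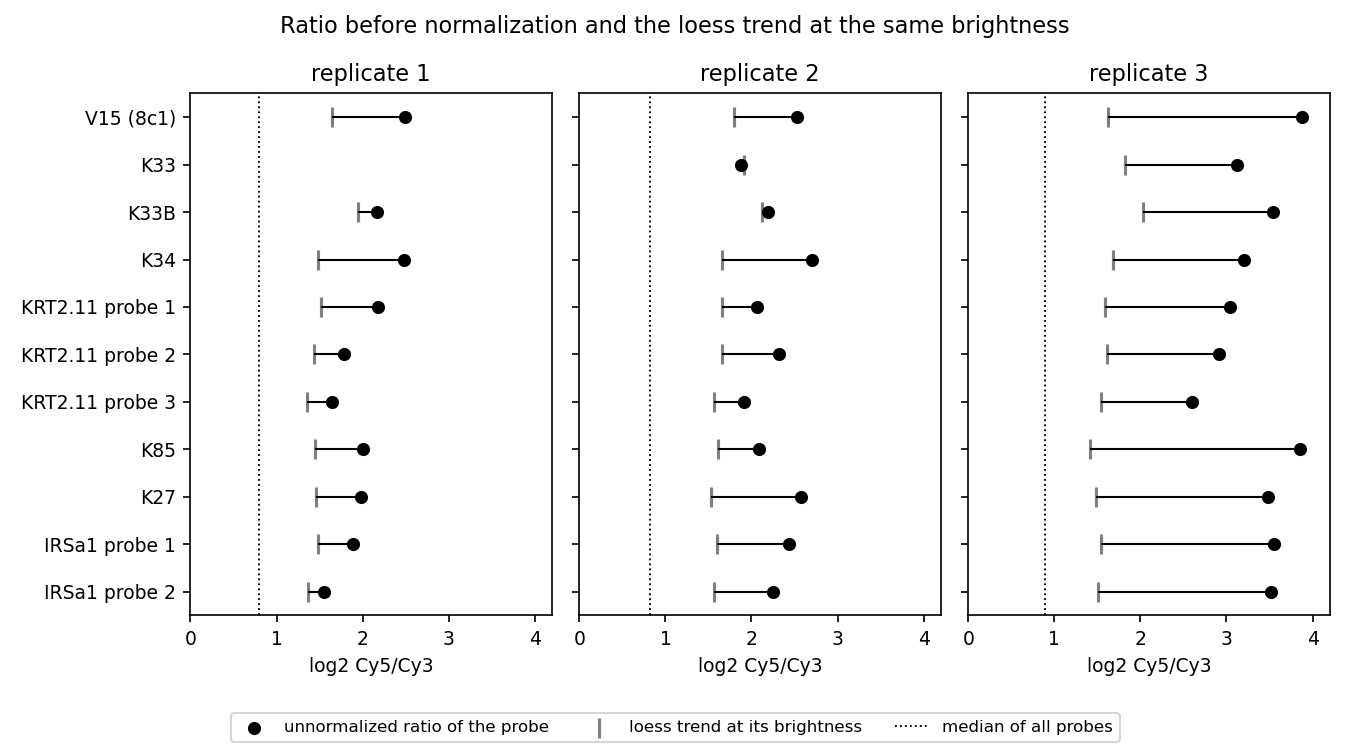
Log2 ratio of Cy5 over Cy3 before normalization (dots, x axis) and loess trend at the same brightness (bars) for each of the 11 keratin probes on the 3 arrays, with the median of all probes as a dotted line. The distance from bar to dot is the normalized ratio, and every bar lies to the right of the dotted line. K33 has no dot on replicate 1, where its spot was left out.

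The other keratins of the array, 9 genes with 11 probes of which 10 were tested, gave 0 calls in limma at an adjusted p of 0.05, and 2 were higher at an unadjusted p under 0.05. Over all probes limma called 0 higher (0%) and 1 lower (0.00668%), with 2765 under the unadjusted limit, 1364 of them higher and 1401 lower. The median log2 ratio of the other keratins was 0.38, against -0.0067 over all probes tested, and 0 of the 10 reached 2-fold.

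K35, a type I keratin of the hair cortex and cuticle that was no member, read 0.36, 0.26 and 2.02 in 1 probe and 0.30, 0.19 and 1.87 in the other. Its means were 0.88 ± 0.99 (limma, adjusted p = 0.299) and 0.79 ± 0.94 (SD, n = 3; limma, adjusted p = 0.319). Its natural photoperiod goat of replicate 3 was low as well, at 12.86 beside 14.31 and 14.20 in the first probe. K83 (LOC100526780), a type II hair keratin, read 0.63 and 0.25 on replicates 1 and 2, and its spot on replicate 3 was flagged and read 1.66 when kept. Both of these hair keratins therefore had their highest ratio on replicate 3, the flagged spot included.

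K38, a further type I hair keratin, had its highest ratio on replicate 3 as the members did. Unlike them it was lower in mean and far lower on replicate 2. Its probes read -0.13, -2.38 and 0.33, and -0.067, -1.90 and 0.51, with means of -0.73 ± 1.45 (limma, adjusted p = 0.51) and -0.48 ± 1.26 (SD, n = 3; limma, adjusted p = 0.609). The natural photoperiod goat of replicate 2 stood at 17.52 in the first probe beside 15.78 and 15.82 in the other natural photoperiod goats. In the second probe the natural photoperiod goats stood at 15.20, 16.38 and 14.96, so that of replicate 3 was the lowest there, as in the members. The natural photoperiod sample that stood farthest apart for K38 was thus a different one than for the members.

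The keratins of the basal epidermis and outer root sheath had another order of the arrays. KRT14, a type I keratin of basal keratinocytes, read 1.25, 0.64 and 0.16, with a mean of 0.68 ± 0.54 (SD, n = 3; limma, adjusted p = 0.227). KRT5, its type II partner, read 1.35 on replicate 1, and with flagged spots kept 1.34, 0.26 and 0.16. In both, replicate 1 was the highest and replicate 3 the lowest, with flagged spots included for KRT5. In every member probe replicate 3 was the highest. A KRT8-like probe read 1.16, 0.52 and 1.09, with a mean of 0.93 ± 0.35 (SD, n = 3; limma, adjusted p = 0.155). The remaining 3 probes, annotated as like KRT75, KRT19 and KRT15, had means of 0.33, -0.17 and 0.036. The KRT15-like mean joins 0.72 on replicate 1 and -0.65 on replicate 3, without a value on replicate 2.

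Genes that act with these keratins in the follicle were taken from lists of pathway members. Of 29 symbols for proteins of the root sheath and shaft only PADI3 was found, an enzyme that converts arginine to citrulline in proteins of the inner root sheath and shaft. Its 2 probes had means of 0.88 ± 0.60 and 0.86 ± 0.58 (SD, n = 3; limma, adjusted p = 0.198 for both), so 0 of 2 were called. Of 30 symbols for hair follicle regulators 9 were found with 21 probes, of which 0 were called, and their median was -0.12. At an unadjusted p under 0.05 in limma, 9 were higher and 3 lower. Over the 14977 probes tested, 1364 were higher and 1401 lower at that limit. Several of the 9 higher probes were of the same gene, and all were of TP63, JAG1, HOXC13, SHH or BMP2. TP63, a master regulator of stratified epithelium, had means of 0.98 ± 0.51 (limma, adjusted p = 0.163) and 0.91 ± 0.57 (SD, n = 3; limma, adjusted p = 0.187). JAG1, a Notch ligand, had a mean of 0.89 ± 0.33 in 1 probe (SD, n = 3; limma, adjusted p = 0.155). FGF7, a growth factor that dermal cells send to keratinocytes, gave the 3 lower probes, with means of -0.45, -0.59 and -0.65. Its remaining probe had a mean of -0.28, and every FGF7 probe was lowest on replicate 1.

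Of 17 symbols for filament anchors and cytolinkers 2 were found with 3 probes, and 0 were called. SFN, a 14-3-3 protein of keratinocytes, read 0.87, 0.65 and 0.92, with a mean of 0.81 ± 0.14 (SD, n = 3; limma, adjusted p = 0.155). VIM, the intermediate filament of mesenchymal cells, had means of -0.23 and -0.16 over the 2 arrays that measured it. None of 14 symbols for epidermal cornification was found.

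The genes nearest in pattern to the members were looked for among 1186 candidate probes, by the Euclidean distance of their 3 log2 ratios from the members' medians. The nearest were both probes of PADI3, at distances of 0.055 and 0.086, and both probes of HOXC13, at 0.15 and 0.20. HOXC13 is a homeobox transcription factor of the hair matrix and cortex. MYOD1, a transcription factor of muscle, came next at 0.34, and the median distance of the candidates was 1.79. The probes of K35 lay farther off than MYOD1, at ranks 30 and 33 with distances of 0.60 and 0.64. With only 3 arrays such likeness is a description.

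PADI3 (A_70_P030052) read 0.43, 0.64 and 1.56, and HOXC13 (A_70_P002872) read 0.42, 0.52 and 1.56. HOXC13 stood at 14.82, 14.86 and 14.81 in the short photoperiod goats and at 14.40, 14.35 and 13.25 in the natural photoperiod goats. PADI3 stood at 11.17, 10.95 and 11.13 against 10.74, 10.31 and 9.57. As in the members, the natural photoperiod goat of replicate 3 was the lowest of the 6 for both genes. Both were picked for ratios like those of the members, so a wide gap on replicate 3 came with that choice. TP63 (A_70_P024142), at 1.32, 1.23 and 0.39, had the order of KRT14 and not that of the members.

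**Figure D4:**
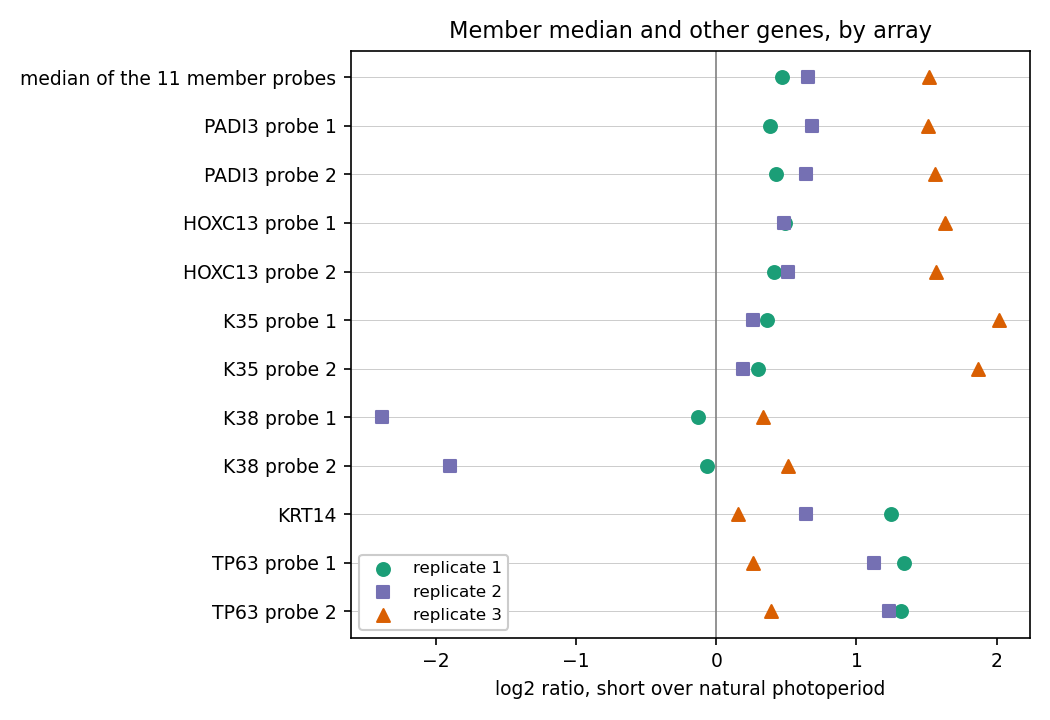
Log2 ratio of short over natural photoperiod (x axis) on each array, 1 marker per array, for the median of the member probes and for probes of 6 other genes (y axis). PADI3, HOXC13 and K35 have replicate 3 far to the right as the members do, K38 has replicate 2 far to the left, and KRT14 and TP63 have replicate 3 leftmost.

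Marker genes of the other cells that skin holds were read from the same arrays. The keratinocyte list was found for 3 of 7 symbols (KRT5, KRT14 and TP63). Its 3 tested probes, of KRT14 and TP63, were all higher in mean. The KRT15-like probe carried another name and was not counted in the list. On replicates 1 and 3 it stood at 15.91 and 15.70 in the short and at 15.19 and 16.35 in the natural photoperiod goats. The list's summed level, nearly all of it KRT14, was 74100 to 87780 in the short and 37000 to 66290 in the natural photoperiod goats. Its lowest natural photoperiod goat was that of replicate 1 and its highest that of replicate 3, where the members were lowest. The leukocyte list was found for 4 of 7 symbols, 1 of its 8 probes was higher, and its summed level was 58850 to 70990 in the short and 83140 to 98080 in the natural photoperiod goats. The lists of fibroblast (3 of 5 found), endothelium (1 of 5), melanocyte (2 of 6), adipocyte (2 of 4), sebaceous gland (2 of 4) and cell division (2 of 5) overlapped between the groups in summed level. None of 7 skeletal muscle symbols was found, and limma called 0 probes of any list. The part of these cells in the keratin ratios was not tested.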

How the data were processed

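Skin RNA of 6 goats was measured on 3 Agilent sheep arrays of 60-base probes, with both dyes on each array. The authors deposited scanner intensity values of both dyes with the log10 ratio of Feature Extraction 10.7.3.1 (version per the file headers), and a table of log2 ratios whose column medians were 0.0082, 0.0012 and 0.0179. Against the scanner files, the deposited table equalled the log2 ratio of the processed Cy5 over Cy3 signals within 0.001 for at least 99.96% of 14958 probes with 1 spot, which settles its scale and direction. It had no further centring, and flagged and unmeasured spots stay in it. From the intensities, normexp background correction (offset 50), loess within arrays without control spots, removal of spots with an outlier flag, averaging of repeated spots and limma 3.58.1 (R 4.3.3) were applied. Each array is its own pair of goats, so the ratio against 0 is the test, with Benjamini-Hochberg adjustment over the 14977 probes measured on at least 2 arrays. A plain sign test over the arrays could not give a p below 0.25. Levels per dye came from Aquantile scaling after loess. All arrays lay on 1 slide. The members and gene lists were chosen with earlier results of these data known. Named besides the members are the other keratins, the list genes with the largest mean differences and the 5 probes nearest in pattern. HOXC13, FGF7, K35 and K38 are detailed after their values were seen. The limma fit was tested on simulated data. Columns of other samples numbered 0. Alternatives were no background correction, normexp without an offset, median centring, the Feature Extraction ratio, the value table, a background filter, flagged spots kept, trended and robust variances, unpaired channels and each array left out.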

Additional observations from a re-analysis of the deposited data

How the results depend on the processing

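All 8 keratins were higher in mean under every alternative except K33 without replicate 3, where the array left read -0.036 (1.30 without replicate 2). Of 82 values of single keratins under an alternative, 76 moved by less than the SD between arrays, 5 moved by more, all under median centring, and 1 reversed. IRSa1, at 1.02 as reported, was at 0.99 and so below 2-fold with the Feature Extraction ratio and in the value table. Median centring gave 1.71 for the mean of the members (0.93 as reported), 11 members at least 2-fold higher (5 as reported) and -0.35 for type II minus type I (-0.095 as reported). Leaving out 1 array gave 1 to 8 members at least 2-fold higher, 1 of them without replicate 3 and 8 without replicate 2. Over all probes, 64 were at least 2-fold higher, against 115 with normexp without an offset, 293 with median centring, 162 with the Feature Extraction ratio, 358 in the value table and 80 to 107 with 1 array left out. At 0.5-fold or below were 62, against 129 with the Feature Extraction ratio, 116 in the value table and 77 to 179 with 1 array left out. The higher share of these was 50.8%, but 79.2% with median centring, 75.5% in the value table and 37.4% without replicate 1. Those lower outnumbered those higher without replicate 1, without replicate 2 (46.6%) and with the background filter (47.7%). Limma called 1 probe, against 1880 with median centring, 5 with the Feature Extraction ratio, 14 in the value table, 0 with any array left out and 0 with the channels unpaired, that is with no replicate block for the goats of an array. In the lists, 0 probes were at least 2-fold higher, against 1 without background correction, 3 each with normexp without an offset, the Feature Extraction ratio and the value table, 8 with median centring and 2 to 6 with 1 array left out. Of those lists 0 probes were at 0.5-fold or below, against 0 to 1 with 1 array left out. The cause of these differences was not tested. The inner root sheath minus shaft difference (0.20 as reported, SD between arrays 0.34) was positive under every alternative, 0.10 to 0.40 with 1 array left out and above that SD only without replicate 1, and 0.052 with median centring. The median SD of member levels among the short photoperiod goats was 0.16 from intensities over the channel median and 0.039 without replicate 1, and 0.073 among the natural photoperiod goats without replicate 3.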
